A study of Rattus norvegicus with 176 samples.

Results

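Bdh1, Acat1, Pdk4 and Angptl4 are 4 genes of ketone body metabolism and of the hepatic response to fasting, and their levels were followed in rat liver under long-term clofibric acid. They were chosen by name as ketogenic or fasting-response genes that PPARα is known to control, and they are 4 of the 10411 genes that the array annotation ties to a probe set of their own. Of several probe sets for 1 gene the brightest by mean log2 was taken, which concerned Bdh1 only: 1368387_at was used and 1374765_at is given beside it. The probe set of Acat1 was 1367763_at, that of Pdk4 1369150_at and that of Angptl4 1388924_at.

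The study hybridised total RNA from liver sections of F344 rats, an inbred strain, to 176 arrays. Clofibric acid is abbreviated CA, the treatment labelled DEN is not spelled out, and the rats' age and sex are not given in the sources used here. The 30 groups of untagged sections held 148 rats, 1 section each, with 3 to 6 rats a group. CA rats were sampled at 5j, 1m, 3m, 9m, 12m and 18m, and DEN-CA rats at 5j, 1m, 3m, 9m and 12m. Controls covered the same 6 times as CA rats and DEN rats the same 5 times as DEN-CA rats, and both had also a time written -8, where the controls are labelled CtrlDEN. Titles write month for m but do not expand j, rev, the sign of -8, TU, PERI or the suffix B, and they name 5000 ppm CA for every rat, controls included, so arms were taken from the source names. Rats labelled rev were CA rev 18m, control rev 18m, DEN-CA rev 12m, DEN rev 12m and control rev 12m, and 6 CA rats carried the time 18 with no unit. The 23 sections whose tag begins with TU came from 9 CA and 7 DEN-CA rats and the 5 tagged PERI from 3 CA and 2 DEN-CA rats, each beside an untagged section of the same rat.

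Ketone bodies are made in liver mitochondria from the acetyl-CoA of fatty acid oxidation and serve other tissues as fuel during fasting. PPARα, the nuclear receptor that fibrates such as clofibric acid activate, is also the main switch of this fasting programme in hepatocytes. Acat1 is the mitochondrial acetoacetyl-CoA thiolase, which acts in ketone body metabolism and in the last step of isoleucine breakdown. Bdh1 interconverts acetoacetate and 3-hydroxybutyrate. Pdk4 is a kinase that switches off the pyruvate dehydrogenase complex and so spares glucose, and Angptl4 is a secreted inhibitor of lipoprotein lipase.

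Array medians of the deposited intensities lay between 25.35 and 187.25, and every array was scaled to a median of 99.35, the unit called signal below. Differences are log2 of signal plus 25, tested with limma over 12393 probe sets in untagged sections, and a probe set counts as called at a Benjamini-Hochberg adjusted p under 0.05. All 4 genes passed the filter on low values, and Acat1 stood in the brightest part of each array, between the 94.6th and 99.5th percentile. Hepatocyte markers were bright, with Alb at a median signal of 17640 and Ttr at 12110. Skeletal muscle markers had medians from 5.70 (Acta1) to 86.6 (Ckm). Adipocyte markers had medians from 6.39 (Lep) to 98.8 (Lipe) and 258 (Cfd), so not all of them were near the bottom of the scale. In these bulk sections fewer cells of a type and less RNA per cell cannot be told apart.

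Acat1 rose under CA at every time and in both settings, with and without DEN. At 5j its signal was 9856, 8048, 8371, 8459 and 8598 in the CA rats, against 2819.8, 2343, 1441, 2004 and 3016 in the controls. At 18m it was 5009.6, 5419, 6031, 4444 and 6766 in the CA rats, against 3235, 2753, 3018, 2389 and 2349 in the controls. The lowest CA rat lay above the highest control rat at each of the 6 times. The log2 difference was 1.93 ± 0.16 (SE, adjusted p = 1e-18) at 5j and 1.00 ± 0.16 (SE, adjusted p = 1.8e-06) at 18m. At the times between, it was 1.85 ± 0.16 at 1m, 1.81 ± 0.16 at 3m, 1.21 ± 0.16 at 9m and 1.21 ± 0.16 at 12m, all of them called. Without array scaling the call at 18m was lost (0.99, adjusted p = 0.055). Averaged over the 6 times Acat1 was 2.83-fold higher in CA rats (1.50 ± 0.067 SE, adjusted p = 7.6e-43).

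In DEN-CA rats against DEN rats Acat1 rose at each of the 5 times as well. At 5j the signal was 5926, 10121, 8967, 7175 and 8220.2 in DEN-CA rats, against 1781, 2949, 2419, 2141 and 3584 in DEN rats. At 12m it was 5030.1, 5558, 6336, 7225 and 7091 in DEN-CA rats, against 3459.8, 2936, 2492, 2581 and 3199 in DEN rats. Again no DEN-CA rat overlapped with the DEN rats of its time. The log2 difference was 1.66 ± 0.16 at 5j, 1.50 ± 0.16 at 1m, 1.27 ± 0.16 at 3m, 1.09 ± 0.16 at 9m and 1.08 ± 0.16 at 12m, called each time, and 1.32 ± 0.074 on average (2.5-fold, adjusted p = 8e-34). Without array scaling the value at 12m was 0.86 (adjusted p = 0.14), no longer called. The drug effect with DEN minus that without, over the 5 shared times, was -0.28 ± 0.10 for Acat1 (95% interval -0.49 to -0.076, adjusted p = 0.31).

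The CA effect on Acat1 was smaller at 18m than at 5j in the main setting. The effect at 18m minus that at 5j was -0.93 ± 0.23 (SE, adjusted p = 0.021), and it lost its call without any 1 of 4 rats (for control rat 4008 at 5j -0.77, adjusted p = 0.12). It was also lost without array scaling (-0.54, adjusted p = 0.75) and with only the groups of the contrast in the fit (-0.93, adjusted p = 0.093). CA rats themselves had less Acat1 signal at 18m than at 5j (-0.66 ± 0.16 SE, adjusted p = 0.0044), a direction that turned when arrays were not scaled (0.15, adjusted p = 0.64) and a call lost with quantile normalization (-0.26, adjusted p = 0.082). Controls at 18m and at 5j differed by 0.27 ± 0.16 (adjusted p = 0.35). That rise was called with the suffix B as a covariate (0.50, adjusted p = 0.021) and with quantile normalization (0.38, adjusted p = 0.0063). The suffix B was on 4 of 5 control arrays at 5j and on 0 of 5 at 18m. For the contrast of 12m with 5j, the change of the effect was -0.72 ± 0.23 in CA rats (adjusted p = 0.083) and -0.58 ± 0.23 in DEN-CA rats (adjusted p = 0.37). The value in CA rats was called with the suffix B as a covariate (-0.83, adjusted p = 0.016) and with quantile normalization (-0.67, adjusted p = 0.00076). It was also called without control rat 4010 at 5j (-0.82, adjusted p = 0.037).

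Over the 30 untagged groups, ordered by mean log2 value, the mean Acat1 signal ranged from 8666 ± 695 in CA rats at 5j (SD, n = 5) to 2077 ± 529 in controls at 1m (n = 5), a ratio of 4.17. The 12 highest groups were the 12 labelled CA or DEN-CA without rev. The step from the lowest of these, DEN-CA 9m at 5245 ± 859, to the next group was the only one of 29 steps larger than the SD of both neighbours. No other pair of neighbouring groups was set apart by this rule, which does not compare groups farther apart in the order.

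The 250 bases before the annotated start of Acat1 and of Angptl4, the 2 genes whose mean level differed under CA, are shown because these genes moved in opposite directions. They are from RefSeq on GRCr8, on the minus strand of chr8:62905043-62905292 and of chr7:15258682-15258931, 5′ to 3′, and capitals mark matches to the motifs searched.
Acat1: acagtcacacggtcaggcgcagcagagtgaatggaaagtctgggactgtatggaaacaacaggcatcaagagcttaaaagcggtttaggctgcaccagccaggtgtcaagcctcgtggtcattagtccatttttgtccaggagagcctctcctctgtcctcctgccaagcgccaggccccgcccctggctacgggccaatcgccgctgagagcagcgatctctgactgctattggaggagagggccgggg
Angptl4: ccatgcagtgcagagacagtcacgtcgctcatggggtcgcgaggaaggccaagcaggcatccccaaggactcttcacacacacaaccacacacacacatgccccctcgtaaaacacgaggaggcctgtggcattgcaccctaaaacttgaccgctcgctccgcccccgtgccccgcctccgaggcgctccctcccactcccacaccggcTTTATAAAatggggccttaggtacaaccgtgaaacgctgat
Searched on both strands were AGGNCANAGGNCA, a direct repeat with 1 base between as PPARα with its partner RXR is known to bind, the single nuclear receptor core AGGTCA, the glucocorticoid receptor core TGTTCT and the TATA box TATAAA. In the same window of 27457 RefSeq promoters these motifs were held by 0.353%, 13.7%, 17.1% and 13.1%, in that order. The TATA box was found in Angptl4, once on each strand in overlapping letters, and no other match was found in Bdh1, Acat1, Pdk4 or Angptl4. No match says only that these letters are not in this window.

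Bdh1, the other ketone body enzyme, was not called in CA rats at any time with the probe set used and scaled arrays. At 5j its signal was 1689, 1099, 1581, 1780.3 and 1840.3 in CA rats, against 1097, 1337, 948, 1484 and 1623 in controls. At 12m it was 921, 1147, 1180.0, 1096 and 1183 in CA rats, against 1309.9, 1508, 1349, 1416 and 1429 in controls. The groups overlapped at 5j and did not at 12m, where CA rats were lower, yet no time passed the test. Without array scaling 3m did (-0.97, adjusted p = 0.0057). The log2 difference was 0.30 ± 0.18 at 5j, 0.19 ± 0.18 at 1m, -0.048 ± 0.18 at 3m, -0.14 ± 0.18 at 9m, -0.34 ± 0.18 at 12m and 0.026 ± 0.18 at 18m, with a mean of -0.0031 ± 0.075 (95% interval -0.15 to 0.15, adjusted p = 0.98).

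In DEN-CA rats the mean effect on Bdh1 was small and negative. At 9m the signal was 967, 873, 979, 966 and 702 in DEN-CA rats, against 1553, 1294, 1261, 1108 and 1201 in DEN rats, with no overlap. The log2 difference was 0.15 ± 0.18 at 5j, 0.095 ± 0.18 at 1m, -0.42 ± 0.18 at 3m, -0.51 ± 0.18 at 9m and -0.33 ± 0.18 at 12m, none of them called. The value at 9m was called under 3 alternatives, with the suffix B as a covariate (-0.60, adjusted p = 0.018), with array weights (-0.52, adjusted p = 0.0046) and with only the groups of the contrast (-0.51, adjusted p = 0.012). The value at 3m was called with quantile normalization (-0.52, adjusted p = 0.012). The mean over the 5 times, -0.20 ± 0.082 (SE, adjusted p = 0.044), passed the test narrowly and lost the call without any 1 of 20 of the 50 rats, its range being -0.23 to -0.18.

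The second probe set of Bdh1 gave a different answer in CA rats. Its mean difference was -0.32 ± 0.072 (SE, adjusted p = 9.6e-05) in CA rats against controls and -0.38 ± 0.078 (SE, adjusted p = 3.8e-05) in DEN-CA rats against DEN rats, both called. At 1m it stood at -0.54 ± 0.18 (SE, adjusted p = 0.024), where 1368387_at stood at 0.19 ± 0.18 (SE, adjusted p = 0.57). The second probe set was also called lower at 3m in CA rats (-0.62 ± 0.18 SE, adjusted p = 0.0078) and at 9m in DEN-CA rats (-0.66 ± 0.18 SE, adjusted p = 0.0076). Which of the 2 follows the transcript better was not tested.

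Bdh1 was lower in CA rats at 18m than at 5j with either probe set, but not once arrays were left unscaled. CA rats at 18m were at 713, 951, 893, 623 and 705, all below the CA rats of 5j (-1.01 ± 0.18, adjusted p = 4.6e-05; with 1374765_at -1.20 ± 0.18). Without array scaling the value of 1368387_at was -0.22 (adjusted p = 0.5). Controls at 18m were at 849, 1212, 1146, 218 and 906. They were lower than controls at 5j by the fit (-0.74 ± 0.18 SE, adjusted p = 0.0049), but control rat 4040, at 218 signal, stood far below the other rats, and without it the value was -0.32 (adjusted p = 0.29). That call was also lost with array weights, without array scaling and with only the groups of the contrast. The change of the CA effect on Bdh1 between 5j and 18m was -0.27 ± 0.26 (adjusted p = 0.82). Over the 30 groups Bdh1 means spanned only a 2.24-fold range, 1598 ± 296 in CA rats at 5j to 712 ± 280 in control rev rats at 18m (SD, n = 5 and 3), and none of the 29 steps in that order exceeded the SD of its neighbours.

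Pdk4 rose at 5j and fell at 12m in CA rats. At 5j its signal was 407, 648, 410.3, 462 and 489 in CA rats, against 198, 232, 122, 165 and 282 in controls. At 12m it was 243, 280.2, 199, 273 and 240.1 in CA rats, against 733, 549.8, 632, 436 and 439.9 in controls. Every CA rat was above every control at 5j and below every control at 12m. The log2 difference was 1.20 ± 0.27 (SE, adjusted p = 0.00064) at 5j and -1.08 ± 0.27 (SE, adjusted p = 0.0025) at 12m, the call at 5j being lost without array scaling (0.81, adjusted p = 0.14). It was 0.71 ± 0.27 at 1m (adjusted p = 0.06), 0.27 ± 0.27 at 3m, -0.60 ± 0.27 at 9m and -0.16 ± 0.27 at 18m, none of them called, and the mean over the 6 times was 0.059 ± 0.11 (adjusted p = 0.72).

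The difference between the 2 ends of the course was itself tested. The CA effect on Pdk4 at 12m minus that at 5j was -2.28 ± 0.38 (SE, adjusted p = 2.1e-05), and at 18m minus 5j it was -1.36 ± 0.38 (SE, adjusted p = 0.063), which 4 alternatives called (with array weights -1.32, adjusted p = 0.04). Controls differed over time too, since Pdk4 was 2.62-fold higher in controls at 12m than at 5j (1.39 ± 0.27 SE, adjusted p = 0.00026) and 1.89-fold higher at 18m (0.92 ± 0.27 SE, adjusted p = 0.021), a call lost without any 1 of 4 rats. DEN rats showed the same direction, with 594, 539, 493, 531 and 445 signal at 12m and 216, 237, 237, 184 and 219 at 5j (1.16 ± 0.27 SE, adjusted p = 0.0093). CA rats at 18m against CA rats at 5j gave -0.44 ± 0.27 (adjusted p = 0.34).

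In DEN-CA rats the early Pdk4 value rested on a few animals. At 5j the signal was 472, 231, 2061, 189 and 1462 in DEN-CA rats, against 216, 237, 237, 184 and 219 in DEN rats. Rats 4087 and 4089 were far above the other DEN-CA rats, and rats 4086 and 4088 lay within the range of the DEN rats. The difference of 1.33 ± 0.27 (SE, adjusted p = 0.00011) became 0.31 (adjusted p = 0.62), without these 2 rats, an alternative chosen after their values were seen, and the call was also lost without array scaling (1.05, adjusted p = 0.067) and with only the groups of the contrast (1.33, adjusted p = 0.11). At 3m the signal was 219.7, 164, 235, 236 and 153 in DEN-CA rats, against 256, 384, 422, 634 and 387 in DEN rats, and Pdk4 fell (-0.93 ± 0.27 SE, adjusted p = 0.0098), a call lost without DEN rat 4066 (-0.77, adjusted p = 0.052) or without array scaling (-0.58, adjusted p = 0.24). The difference was 0.10 ± 0.27 at 1m, -0.62 ± 0.27 at 9m and -0.74 ± 0.27 at 12m, none of them called. At 12m the groups did not overlap, with 262 to 354 in DEN-CA rats and 445 to 594 in DEN rats. The value at 12m was called with array weights (-0.80, adjusted p = 0.0096) and with only the groups of the contrast (-0.74, adjusted p = 0.00023). The value at 9m was called with array weights (-0.65, adjusted p = 0.046). The effect at 12m minus that at 5j was -2.07 ± 0.38 (SE, adjusted p = 0.00016), and -1.05 (adjusted p = 0.2), without rats 4087 and 4089. With only the groups of the contrast in the fit it was -2.07 (adjusted p = 0.081). The mean over the 5 times was -0.17 ± 0.12 (adjusted p = 0.28), and -0.38 (adjusted p = 0.0017), without the same rats. Over the 30 groups Pdk4 means ran from 883 ± 836 in DEN-CA rats at 5j to 195 ± 62.1 in controls at -8 (SD, n = 5 each), and none of the 29 steps exceeded the SD of its neighbours.

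Angptl4 fell under CA from 3m on. At 5j its signal was 476, 1160.4, 505, 541 and 1177 in CA rats, against 741, 479.6, 469, 736 and 555 in controls. At 12m it was 129.5, 475, 285, 219 and 285 in CA rats, against 681, 866, 577, 599 and 558 in controls. The groups overlapped at 5j, 1m and 3m, and every CA rat was below every control at 9m, 12m and 18m. The log2 difference was 0.27 ± 0.25 at 5j and -0.30 ± 0.25 at 1m, neither called. It was then -0.70 ± 0.25 (SE, adjusted p = 0.044) at 3m, -1.10 ± 0.25 (SE, adjusted p = 0.0012) at 9m, -1.25 ± 0.25 (SE, adjusted p = 1e-04) at 12m and -1.13 ± 0.25 (SE, adjusted p = 0.00064) at 18m. At 18m the signal was 198, 236, 237, 358 and 376 in CA rats, against 399, 866, 821, 443 and 768 in controls, so the highest CA rat lay just under the lowest control. The call at 3m was lost without any 1 of 6 of the 10 rats (for CA rat 4131 -0.59, adjusted p = 0.13). It was lost as well under 5 other alternatives, and the call at 9m was lost without array scaling (-0.95, adjusted p = 0.17). Over the 6 times Angptl4 was 1.63-fold lower in CA rats (-0.70 ± 0.10 SE, adjusted p = 3.5e-09). Arrays with the suffix B are absent at 12m and 18m in both arms. With these arrays alone the mean over 5j, 1m, 3m and 9m was -0.56, not called, with only 1 CA array at 1m, 3m and 9m.

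In DEN-CA rats Angptl4 was higher at 5j and lower from 3m on. At 5j the signal was 851, 1322, 2176, 541 and 1462 in DEN-CA rats, against 323, 465, 465, 679.7 and 634 in DEN rats, and Angptl4 rose (1.16 ± 0.25 SE, adjusted p = 0.00029). The same rats 4087 and 4089 that were high in Pdk4 were the highest here, and without them the value was 0.74 (adjusted p = 0.1). At 12m it was 412, 304, 248, 314 and 292 in DEN-CA rats, against 703, 808, 587, 934 and 999 in DEN rats, with no overlap. The difference was -0.10 ± 0.25 at 1m, then -1.06 ± 0.25 at 3m, -1.36 ± 0.25 at 9m and -1.29 ± 0.25 at 12m, the last 3 called, and -0.53 ± 0.11 (SE, adjusted p = 4.2e-05) on average. Without array scaling the calls at 5j (0.89, adjusted p = 0.17), 3m (-0.70, adjusted p = 0.16) and 9m (-0.92, adjusted p = 0.11) were lost. The drug effect at 5j with DEN minus that without was 0.89 ± 0.35 (adjusted p = 0.39), so the rise was not shown to differ between the settings.

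The Angptl4 effect changed over time in CA and in DEN-CA rats, and the calls in CA rats depended on the processing. From 5j to 12m the effect changed by -1.52 ± 0.35 (SE, adjusted p = 0.0053) in CA rats and by -2.45 ± 0.35 (SE, adjusted p = 2.3e-07) in DEN-CA rats. Without rats 4087 and 4089 the DEN-CA value was -2.03 (adjusted p = 0.00017). From 5j to 18m it changed by -1.40 ± 0.35 (SE, adjusted p = 0.022), a call lost without any 1 of 7 of the 20 rats. In CA rats the change to 12m was uncalled with array weights (-1.14, adjusted p = 0.05), without array scaling (-1.33, adjusted p = 0.55) and with only the groups of the contrast (-1.52, adjusted p = 0.057). The change to 18m was uncalled without array scaling (-1.03, adjusted p = 0.75) and with only its groups (-1.40, adjusted p = 0.12). Controls at 18m against 5j differed by 0.098 ± 0.25 (adjusted p = 0.88). In the order of the 30 group means Angptl4 had 1 step of 29 beyond the SD of its neighbours, between DEN rats at 5j (513 ± 144) and the 7 lowest groups, which were CA and DEN-CA rats at 3m, 9m and 12m and CA rats at 18m. The highest group was DEN-CA at 5j (1270.4 ± 626) and the lowest DEN-CA at 9m (251 ± 74.5), a ratio of 5.06.

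**Figure D1:**
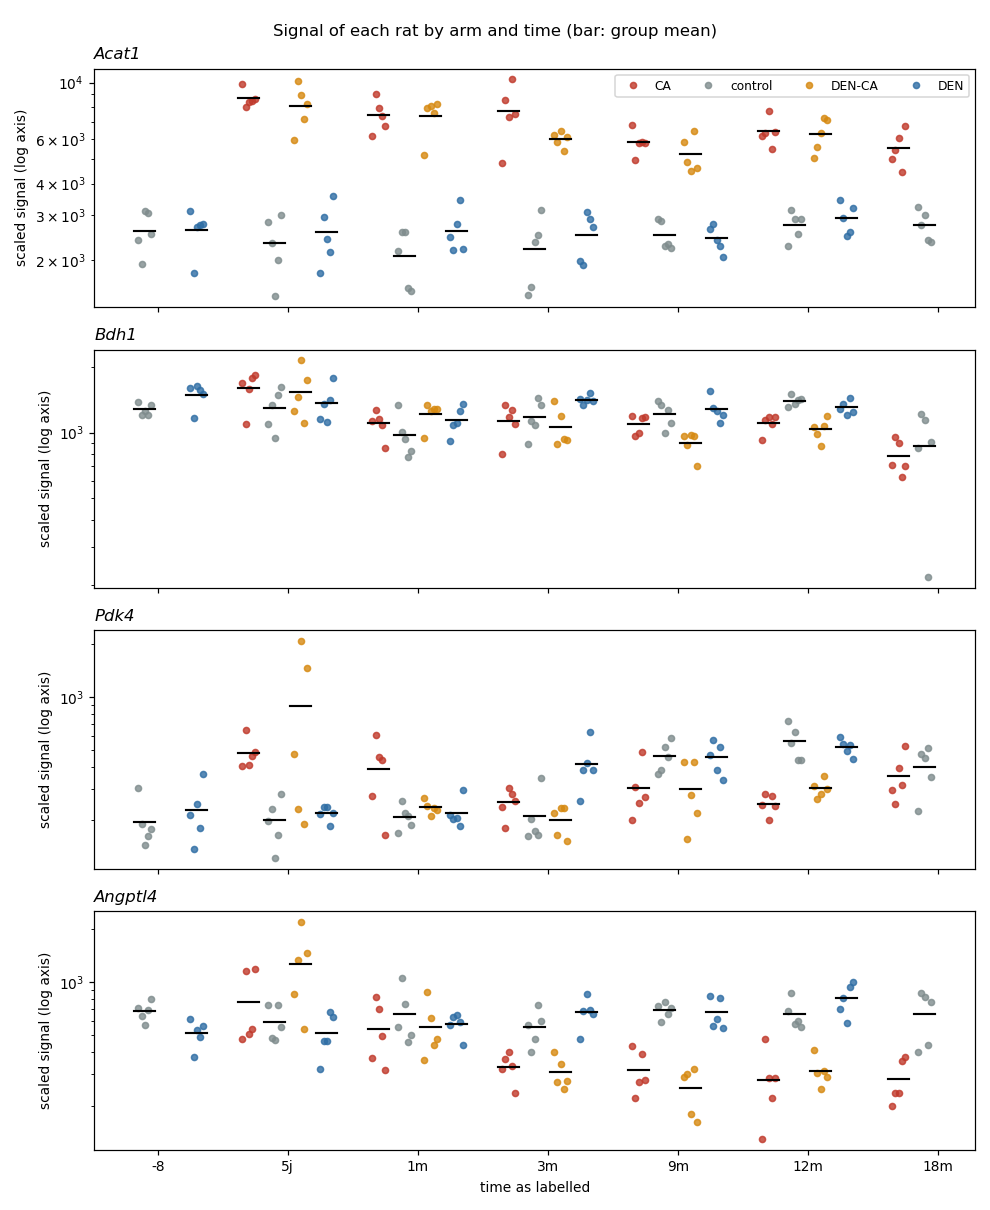
Signal of each rat (log axis) against time as labelled, for CA, control, DEN-CA and DEN rats from left to right within a time, with a black bar at each group mean. All CA and DEN-CA points of Acat1 lie above the controls and DEN rats of their time, Bdh1 holds 1 control rat at 218 at 18m, and 2 DEN-CA rats at 5j stand apart in Pdk4.

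**Figure D2:**
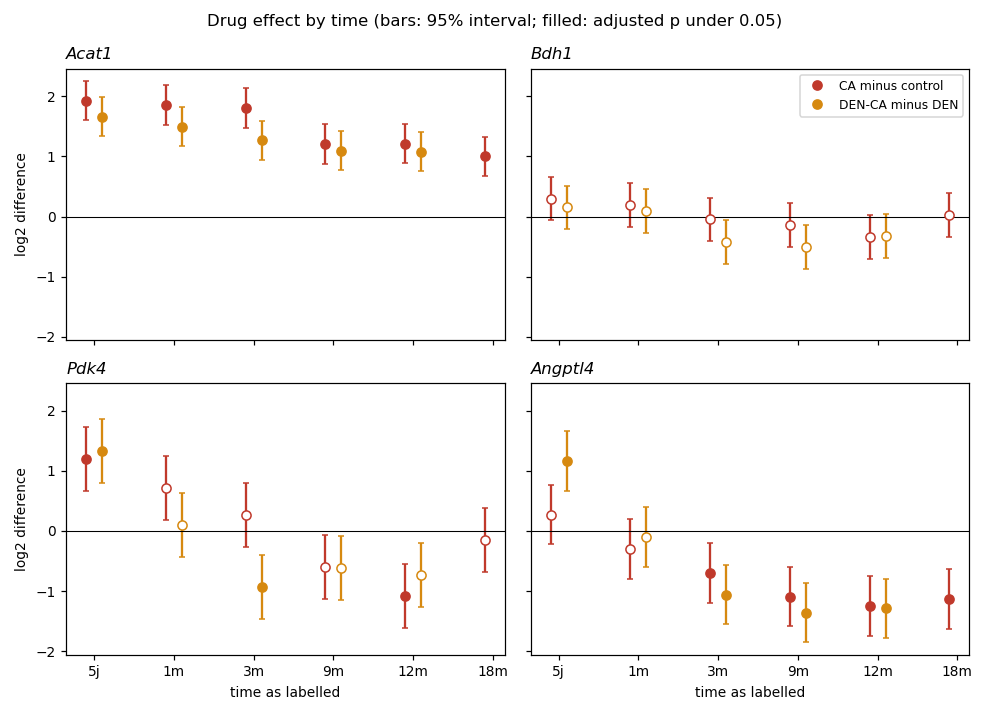
Log2 difference of CA minus control and of DEN-CA minus DEN by time, with 95% intervals, filled where called. Acat1 is called at all 11 points, and Angptl4 passes below 0 from 1m onward, with calls from 3m.

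The share of all probe sets called gives the background for these counts. In CA rats against controls 11.2% were called at 5j (2 of the 4 genes), 14.4% at 1m (1), 14.2% at 3m (2), 6.78% at 9m (2), 11.7% at 12m (3) and 6.79% at 18m (2). In DEN-CA rats against DEN rats 10.5% were called at 5j (3 of the 4), 16.2% at 1m (1), 14.3% at 3m (3), 6.99% at 9m (2) and 7.04% at 12m (2). For the means over time, 40.2% were called in CA rats (Acat1 and Angptl4) and 35.1% in DEN-CA rats (Acat1, Angptl4 and Bdh1). Between times, the background was 0.726% for the CA effect at 18m minus 5j, 2.07% at 12m minus 5j and 0.888% for the DEN-CA effect. It was 8.29% for CA rats at 18m against 5j, 7.22% for controls at 18m and 6.02% at 12m against 5j, and 1.2% for DEN rats at 12m against 5j. For the drug effect with DEN minus without it was 0.0403% over the 5 times and 0.0403% at 5j.

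Markers of other cell types moved with these effects, some lower and some higher. All 6 of 6 Kupffer cell and macrophage markers fell in the mean CA effect, with a median of -0.45, and all 6 fell in the mean DEN-CA effect, with a median of -0.34. At 12m their summed signal was 3456 to 4885 in CA rats, against 4019 to 6289 in controls, which overlapped. Cholangiocyte markers summed higher at 12m, to 435 to 846 in CA rats, against 241 to 293 in controls. In DEN-CA rats they summed to 469 to 566, against 258 to 311 in DEN rats. Pancreatic acinar markers summed to 874 to 1783 in CA rats, against 304 to 428 in controls. In DEN-CA rats they summed to 969 to 1347, against 266 to 395 in DEN rats. Such sums, here and below, add signals, so the brightest gene of a list can carry them. Over untagged sections Cela1 had the highest median of the acinar list, 487, and the next was Cpb1 at 79.3. Epcam had the highest of the cholangiocyte list, 231, and the next was Spp1 at 46.8. These sums are therefore not read as a change of those cells. In the mean CA effect 2 of 4 endothelial, 3 of 7 stellate cell and fibroblast and 2 of 6 lymphocyte markers fell too. Over all probe sets 40.2% were called in that effect, 2186 higher and 2790 lower, so these counts are not read as a change of those cells. At 5j 2 of 3 erythroid markers fell in both drug contrasts, their sum being 1235 to 2524 in CA rats, against 3929 to 6921 in controls, and 1361 to 3899 in DEN-CA rats, against 4129 to 7115 in DEN rats. None of the 7 hepatocyte markers was called in the mean CA effect, and 4 of 7 fell in the mean DEN-CA effect, whose list median was -0.20, beside 35.1% of all probe sets called. The part of these cells in the values of Acat1, Bdh1, Pdk4 and Angptl4 was not tested.

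None of the 4 genes was called between DEN rats and controls. Across the 6 times, -8 included, the log2 difference of DEN rats against controls lay between -0.05 and 0.34 for Acat1, between -0.11 and 0.28 for Bdh1 and between -0.40 and 0.28 for Angptl4. For Pdk4 the value farthest from 0 was that at 3m, where DEN rats stood at 256, 384, 422, 634 and 387, against 163, 204, 174, 164 and 344 in controls (0.91 ± 0.27 SE, adjusted p = 0.32). Few probe sets of any gene were called by limma: 0.307% at -8, 0.0403% at 5j, 0% at 1m (548 at an unadjusted p under 0.05), 0.00807% at 3m, 0% at 9m (458) and 0% at 12m (332), and 0.0161% for the mean. At -8 Acat1 averaged 2623 ± 501 in DEN rats, against 2602 ± 495 in controls (SD, n = 5 each), and Angptl4 515 ± 89.8 against 685 ± 83.1. Over the times from 5j on, the mean difference was 0.15 ± 0.074 for Acat1, 0.11 ± 0.082 for Bdh1, 0.21 ± 0.12 for Pdk4 and 0.025 ± 0.11 for Angptl4.

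In rats labelled rev, neither Acat1 nor Angptl4 was called between CA rats and rats without CA. Acat1 signal was 3038, 2519, 2557 and 2642 in CA rev rats at 18m, against 2266, 3378 and 2533 in control rev rats (-0.0028 ± 0.20 SE, adjusted p = 1). Angptl4 was 979.8, 651, 895 and 634 in CA rev rats, against 446, 719 and 1019.6 in control rev rats (0.16 ± 0.30 SE, adjusted p = 0.93). With 3 control rev rats the 95% intervals were wide, -0.40 to 0.39 for Acat1 and -0.43 to 0.76 for Angptl4. Bdh1 differed by 0.42 ± 0.22 and Pdk4 by 0.063 ± 0.33, and no gene of the 4 was called, beside 0.734% of all probe sets.

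At 12m with DEN neither gene was called either. Acat1 was 1944, 2612, 2810.0, 2476 and 3235 in DEN-CA rev rats, and lowest 2151, median 2520.3 and highest 2874 in DEN rev rats (0.054 ± 0.16 SE, adjusted p = 1). Angptl4 was 518, 982, 723, 726 and 813 in DEN-CA rev rats, and lowest 604, median 759.5 and highest 986 in DEN rev rats (-0.066 ± 0.24 SE, adjusted p = 1). The groups overlapped for both genes. Bdh1 differed by 0.40 ± 0.18 and Pdk4 by 0.061 ± 0.26, neither called, beside 0.121% of all probe sets.

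Set against rats that were not labelled rev, Acat1 was lower and Angptl4 higher. CA rev rats at 18m differed from CA rats at 18m by -1.02 ± 0.17 (SE, adjusted p = 4.6e-06) for Acat1 and by 1.43 ± 0.26 (SE, adjusted p = 2.5e-05) for Angptl4. DEN-CA rev rats at 12m differed from DEN-CA rats at 12m by -1.25 ± 0.16 (SE, adjusted p = 2.4e-09) for Acat1 and by 1.19 ± 0.25 (SE, adjusted p = 0.00033) for Angptl4. None of these 4 pairs of groups overlapped. The background for the calls was 14.7% of probe sets called at 18m and 12.8% at 12m. The share of all probe sets whose groups do not overlap was not computed, here or for the other groups compared. Bdh1 differed by 0.25 ± 0.19 at 18m and 0.41 ± 0.18 at 12m, where its groups did not overlap. Pdk4 differed by -0.54 ± 0.29 at 18m and 0.56 ± 0.27 at 12m, and neither gene was called.

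Marker sums moved with these contrasts as well. Kupffer cell and macrophage markers summed to 6249 to 9108 in CA rev rats, against 4272 to 5147 in CA rats at 18m, and to 4827 to 8569 in DEN-CA rev rats, against 3538 to 4576 in DEN-CA rats at 12m. Cholangiocyte markers summed to 308 to 353 in CA rev rats, against 486 to 621 in CA rats at 18m, and to 272 to 332 in DEN-CA rev rats, against 469 to 566 in DEN-CA rats. Adipocyte markers summed to 575 to 605 in CA rev rats, against 371 to 503 in CA rats at 18m. None of these pairs overlapped. At 12m adipocyte sums did overlap, 347 to 458 in DEN-CA rev rats against 354 to 502 in DEN-CA rats. Control rev rats at 18m had adipocyte sums of 538 to 640, against 326 to 517 in controls. Lymphocyte sums in DEN-CA rev rats had a median of 647 and a highest of 3928, against 377 to 480 in DEN-CA rats at 12m. The part of these cells in the values of Acat1 and Angptl4 was not tested.

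The label rev also came with a difference among controls. Control rev rats against controls at 18m had 9.79% of probe sets called, and their Kupffer cell and macrophage markers summed to 9229 to 12100.0, against 3824 to 8698 in controls. Lymphocyte markers in these 3 rats, the reference of the CA rev rats, had a median sum of 803 and a highest of 8918, against 468 to 2044 in controls. Their erythroid sum reached 14960, against 4320 to 7220 in controls. DEN rev rats against DEN rats at 12m had 0.0323% called. Neither contrast called any of the 4 genes. For Acat1 they gave -0.021 ± 0.19 in controls and -0.23 ± 0.16 in DEN rats. Control rev rats of 12m, which have no CA rev group beside them, averaged 2729 ± 310.3 for Acat1 and 786 ± 131 for Angptl4 (SD, n = 4). For Pdk4 the same contrasts gave -0.76 ± 0.31 (adjusted p = 0.11) and -0.24 ± 0.26.

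With the rev rats that had no CA subtracted in the same way, the drug effect in rev rats minus that in the other rats was -1.0 ± 0.26 (SE, adjusted p = 0.019) for Acat1 at 18m and -1.03 ± 0.23 (SE, adjusted p = 0.002) at 12m. For Angptl4 it was 1.30 ± 0.39 (SE, adjusted p = 0.064) at 18m and 1.22 ± 0.34 (SE, adjusted p = 0.03) at 12m. The Angptl4 call at 12m was lost without any 1 of 6 of the 21 rats and with all sections and the rat as a random block (1.22, adjusted p = 0.051). The background was 1.46% at 18m and 2.3% at 12m. The Acat1 value at 18m lost its call without CA rat 4150 or control rev rat 4044 (for rat 4044 -0.84, adjusted p = 0.084). Without array scaling both Acat1 calls were lost, at 18m (-1.04, adjusted p = 1) and at 12m (-0.52, adjusted p = 0.45). Pdk4 gave 0.22 ± 0.42 and 0.80 ± 0.37, and Bdh1 0.40 ± 0.29 and 0.72 ± 0.25, none called.

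**Figure D3:**
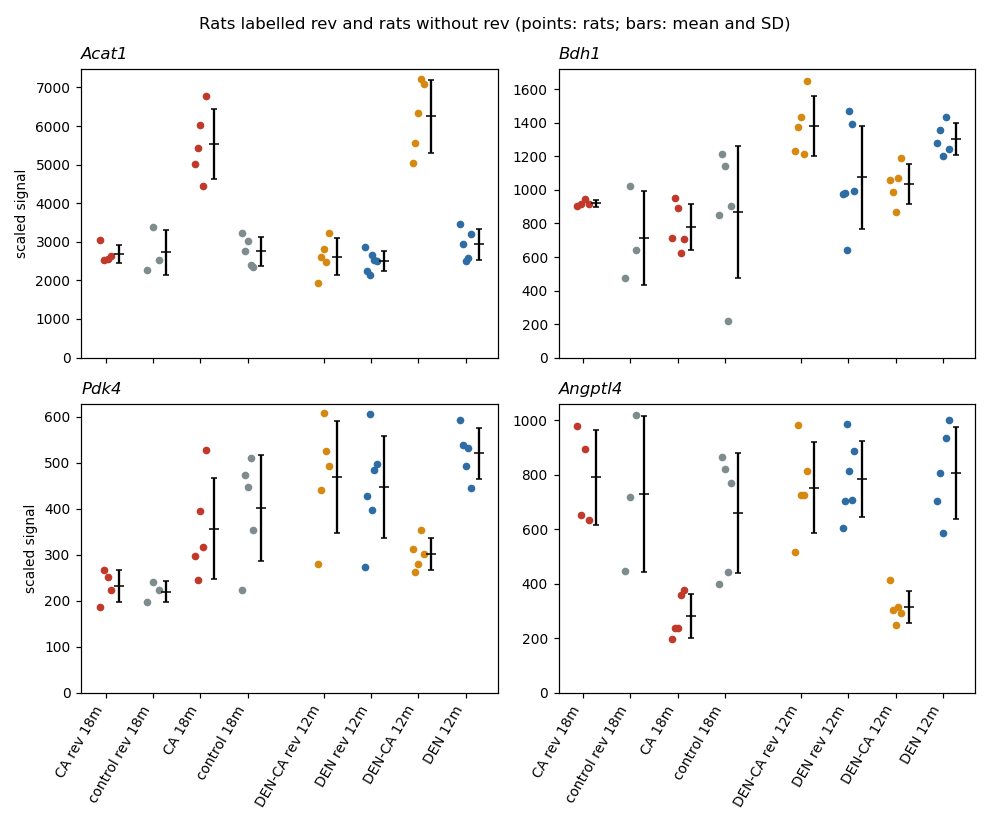
Signal of each rat in rev groups and in the matching groups without rev, at 18m (left 4 groups) and 12m (right 4 groups), with mean and SD. Acat1 is high and Angptl4 low in CA 18m and DEN-CA 12m rats, and both genes overlap among the other groups shown.

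In the 6 CA rats labelled 18 with no unit, Acat1 was above controls and Angptl4 was not called against them. Acat1 was lowest 5123, median 5714 and highest 6579.9 in these rats, against 3235, 2753, 3018, 2389 and 2349 in controls at 18m, and the difference from controls at 18m was 1.08 ± 0.16 (SE, adjusted p = 2.8e-08). Angptl4 was lowest 278, median 635 and highest 984 in these rats, against 399, 866, 821, 443 and 768 in controls at 18m (-0.069 ± 0.24 SE, adjusted p = 0.87). Against CA rats at 18m, Angptl4 was higher in them (1.06 ± 0.24 SE, adjusted p = 0.0021) and Acat1 differed by 0.084 ± 0.16 (adjusted p = 0.81). Without array scaling the calls of Angptl4 against CA rats (0.71, adjusted p = 0.25) and of Acat1 against controls (0.70, adjusted p = 0.085) were lost. The background was 23.2% against controls and 7% against CA rats at 18m, and Bdh1 and Pdk4 were called in neither. What the missing unit means for the time of sampling was not tested.

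Within rats, Acat1 showed no called difference between TU sections and the untagged section, TU sections of 1 rat being averaged first. In the 9 CA rats TU signal had lowest 2237, median 5528, highest 6685, and untagged signal lowest 2642, median 5666, highest 6766. In the 7 DEN-CA rats TU signal had lowest 1288, median 5529, highest 8185, and untagged signal lowest 1944, median 5030.1, highest 7225. The lowest value in each of these was from a rat labelled rev. The paired log2 difference of Acat1 was -0.089 ± 0.11 in CA rats (95% interval -0.32 to 0.14) and -0.012 ± 0.12 in DEN-CA rats (95% interval -0.27 to 0.25).

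Angptl4 fell in TU sections of both arms. In the 9 CA rats TU signal had lowest 101, median 158, highest 321, and untagged signal lowest 129.5, median 278, highest 634. It was lower in TU in 8 of 9 CA rats, the exception being rat 4137 at 12m, with 321 in TU and 130 in the untagged section. In the DEN-CA rats TU signal had lowest 92.2, median 149, highest 342, and untagged signal lowest 179.9, median 314, highest 518, lower in TU in 7 of 7 rats. The paired difference was -0.87 ± 0.22 (SE, adjusted p = 0.0056) in DEN-CA rats and -0.76 ± 0.19 (SE, adjusted p = 0.042) in CA rats. The call in CA rats was lost on leaving out 8 of 9 rats singly and became stronger without rat 4137 (-1.0, adjusted p = 1.3e-05). Without the pairing by rat it was -0.76 (adjusted p = 0.067).

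Pdk4 and Bdh1 pointed the same way with smaller values. Pdk4 was lower in TU in 7 of 9 CA rats (-0.38 ± 0.15 SE, adjusted p = 0.14) and in 7 of 7 DEN-CA rats (-0.48 ± 0.17 SE, adjusted p = 0.034). The DEN-CA call became -0.48 (adjusted p = 0.12), without the pairing and was lost without any 1 of 4 rats. Bdh1 was lower in TU in 6 of 9 CA rats (-0.34 ± 0.16 SE, adjusted p = 0.23) and in 6 of 7 DEN-CA rats (-0.37 ± 0.19 SE, adjusted p = 0.15). Its median over rats was -0.19 in CA rats and -0.23 in DEN-CA rats. The lowest values, -1.60 and -1.24, were from rev rats 4151 and 4111. The second Bdh1 probe set gave -0.58 ± 0.17 (SE, adjusted p = 0.014) in DEN-CA rats, lower in 7 of 7. In CA rats 3.74% of 11566 probe sets were called, in DEN-CA rats 29.6%. For CA minus DEN-CA rats 0% were called (1812 at an unadjusted p under 0.05 by limma), so no gene of the 4 was shown to differ between the arms, Angptl4 giving 0.11 ± 0.29.

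Markers of other cells moved with the TU tag. The 6 Kupffer cell and macrophage markers summed to 1941 to 6782 in TU sections of DEN-CA rats, against 3538 to 8569 in untagged ones, and 4 of the 6 fell. The 4 endothelial markers summed to 305 to 851 in TU sections, against 1089 to 1785 in untagged ones, and 2 of 4 fell. The 4 adipocyte markers summed to 158 to 381 in TU sections, against 350 to 502 in untagged ones, and both that were tested fell. Of 3 erythroid markers 2 fell, their sum being 1365 to 4596 in TU, against 3810.0 to 5500.0 in untagged sections. The 7 pancreatic acinar markers summed to 1244 to 19990.0 in TU, against 397 to 1416 in untagged sections, the top value being a TU section of rev rat 4111. Hepatocyte markers, 7 in number, summed to 50750.0 to 109300.0 in TU, against 45380.0 to 132300.0, and none was called. In TU sections of CA rats 2 of 6 Kupffer cell and macrophage markers fell. The share of all probe sets called was 29.6% in TU of DEN-CA rats and 3.74% in TU of CA rats. The part of these cells in the TU values of Angptl4 and Pdk4 was not tested. Without rats of rev groups, Angptl4 in DEN-CA rats was -0.92 (adjusted p = 0.0066).

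PERI sections of 5 rats showed no called change. The difference from the untagged section was -0.099 ± 0.13 for Acat1, 0.011 ± 0.12 for Bdh1, 0.061 ± 0.17 for Pdk4 and 0.30 ± 0.19 for Angptl4. Angptl4 had 354 in PERI and 130 in the untagged section of rat 4137, the same rat that stood apart in TU. Of 10174 probe sets 0% were called by limma, with 283 at an unadjusted p under 0.05.

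**Figure D4:**
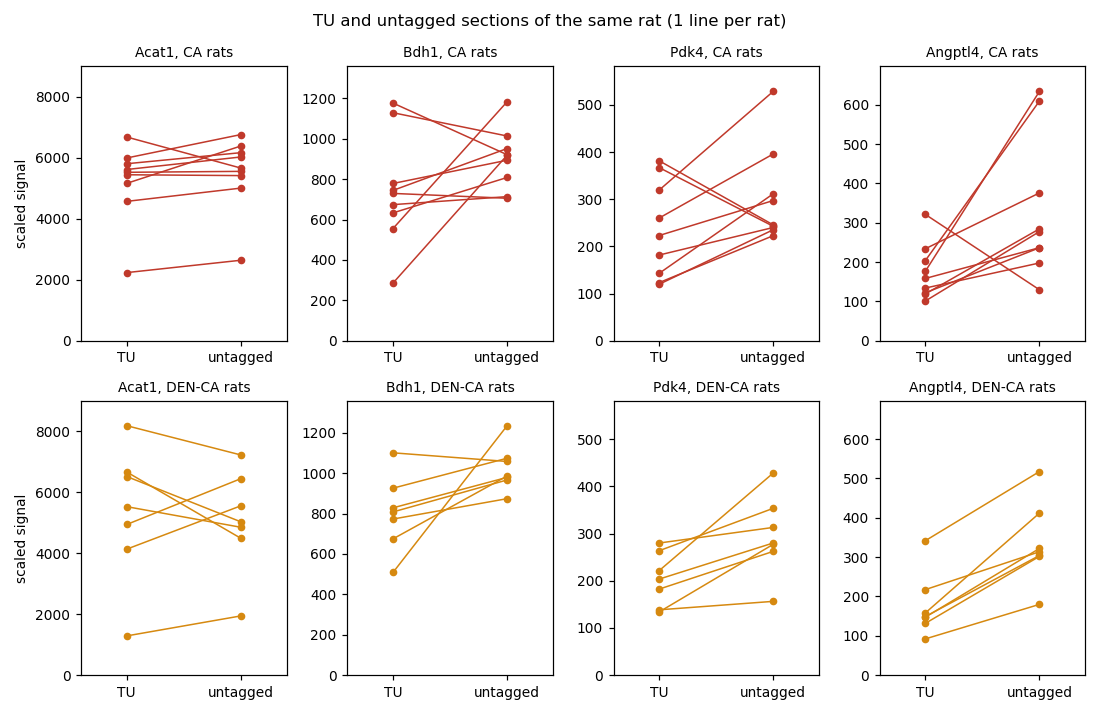
Signal in TU (left) and untagged (right) sections, 1 line per rat, CA rats above and DEN-CA rats below. Angptl4 lines rise to the right in 8 of 9 CA rats and in 7 of 7 DEN-CA rats, while Acat1 lines run both ways.

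For the list counts that follow, 40.2% of all probe sets were called in the mean CA effect, 2186 higher and 2790 lower, and 35.1% in the mean DEN-CA effect, and each list is to be read against these shares. The ketone body list held genes called in both directions. Of 12 listed genes 8 were on the array and tested; in the mean CA effect 3 rose, 3 fell and 2 were not called, and in the mean DEN-CA effect 3 rose, 4 fell and 1 was not. Bdh2, a cytosolic dehydrogenase, rose (0.55 ± 0.089 SE, adjusted p = 1e-07), as did the transporter Slc16a6 (0.41 ± 0.071 SE, adjusted p = 7.4e-07). The monocarboxylate transporters Slc16a1 (-0.45 ± 0.061 SE, adjusted p = 3e-10) and Slc16a7 (-0.34 ± 0.059 SE, adjusted p = 6.8e-07) fell. The list's median was -0.0058, beside -0.018 over all probe sets tested.

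Among the thiolases some shared the direction of Acat1. Of 5 tested, Acat1 included, 3 rose and none fell in the mean CA effect, with a median of 0.57, and 4 rose and 1 fell in the mean DEN-CA effect. Hadhb, of the mitochondrial trifunctional protein, rose (0.70 ± 0.061 SE, adjusted p = 3.5e-19), and so did Acaa2, the mitochondrial 3-ketoacyl-CoA thiolase (0.57 ± 0.057 SE, adjusted p = 5.5e-16). The cytosolic thiolase Acat2 was at 0.17 ± 0.072 (SE, adjusted p = 0.057) and Scp2 at -0.12 ± 0.059 (SE, adjusted p = 0.09). In branched-chain amino acid breakdown, where Acat1 also acts, 9 of 18 tested genes rose and none fell in the mean CA effect, with a median of 0.19, and 12 rose and 1 fell in the mean DEN-CA effect. The share called in the mean CA effect was near the 40.2% of all probe sets. Hibch, a hydrolase of valine breakdown, rose (0.96 ± 0.069 SE, adjusted p = 4.1e-25), as did Bckdha, a subunit of the branched-chain ketoacid dehydrogenase (0.88 ± 0.089 SE, adjusted p = 7.6e-16).

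The complex that Pdk4 inhibits was tested with it. Of 12 genes of the pyruvate dehydrogenase complex and its regulators 5 rose and 2 fell in the mean CA effect, with a median of 0.058, and the counts in the mean DEN-CA effect were the same 5 and 2. The subunits Pdha1 (0.40 ± 0.043 SE, adjusted p = 1.8e-14), Dld (0.40 ± 0.058 SE, adjusted p = 2.4e-09) and Pdhx (0.36 ± 0.054 SE, adjusted p = 9.1e-09) rose. Pdp2, a phosphatase that reverses the action of the kinases, fell (-0.68 ± 0.089 SE, adjusted p = 1.2e-10).

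Among 9 genes of lipoprotein lipase and its regulators 1 rose and 4 fell in the mean CA effect, Angptl4 among those that fell, with a median of -0.24, beside 1 and 6 in the mean DEN-CA effect. Lpl itself, the enzyme that Angptl4 inhibits, rose (1.70 ± 0.091 SE, adjusted p = 2.6e-35), whereas Apoc3, another inhibitor of lipolysis, fell (-0.57 ± 0.074 SE, adjusted p = 4.1e-11). The hepatic lipase Lipc (-0.39 ± 0.058 SE, adjusted p = 7.1e-09) and Apoa5 (-0.25 ± 0.056 SE, adjusted p = 1e-04) fell too. Of 19 fasting-induced genes tested, 7 rose and 5 fell in each of the 2 mean effects, beside 40.2% and 35.1% of all probe sets called, with a median of 0.061 in CA rats. Igfbp1 (1.07 ± 0.18 SE, adjusted p = 5.1e-07) and the acylcarnitine carrier Slc25a20 (0.39 ± 0.058 SE, adjusted p = 4.6e-09) rose. G0s2, an inhibitor of adipose triglyceride lipase (-0.81 ± 0.14 SE, adjusted p = 3.2e-07), and Cpt1a, which imports fatty acids into mitochondria (-0.35 ± 0.059 SE, adjusted p = 2.7e-07), fell.

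**Figure D5:**
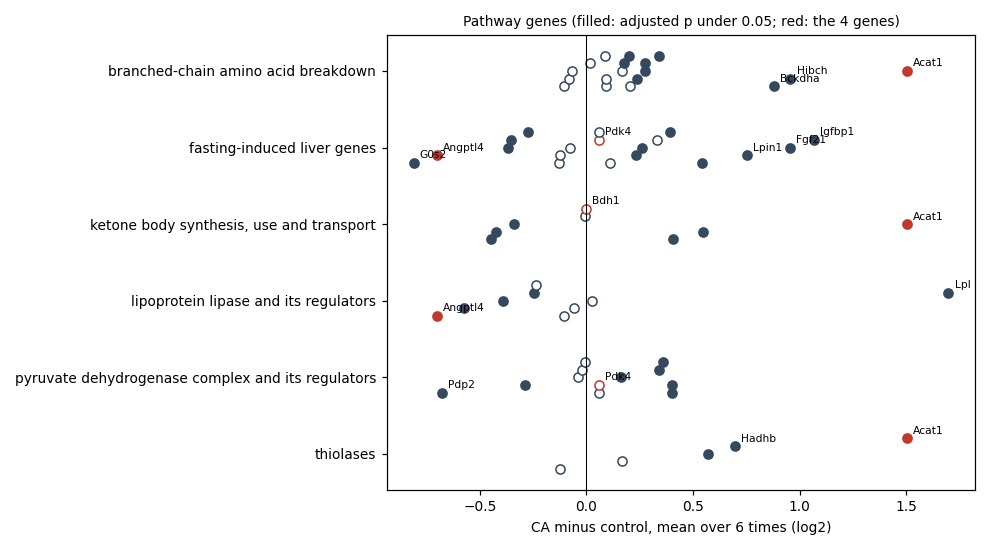
Mean CA effect over 6 times (log2, CA minus control) of each tested gene in 6 pathway lists, filled where called and red for the 4 genes. Acat1 at 1.50 stands at the high end of the 3 lists that hold it, Lpl at 1.70 is the highest of its list, Angptl4 at -0.70 is the lowest of its list of lipoprotein lipase regulators, and Bdh1 and Pdk4 lie near 0.

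The genes whose group means ran most like those of each member, out of 8691 genes over 30 groups, are given as a description only. For Acat1 they were Ehhadh, the peroxisomal bifunctional enzyme, at a Pearson correlation of 0.983, then Retsat at 0.973, Hdc at 0.972, and Acot8 and Me1 at 0.97. For Angptl4 they were Gde1 at 0.897, Asgr1 at 0.821, Cyp3a9 at 0.813, Plod1 at 0.8 and Acot7 at 0.791. Those nearest to Bdh1 reached 0.777 (Sult1e1), 0.774 (Hao2), 0.771 (Mup5), 0.764 (Akr1c3) and 0.76 (Gpd1), and those nearest to Pdk4 0.713 (Mlec), 0.705 (Mapk9), 0.703 (Met), 0.694 (Plekhb1) and 0.692 (Ptpn12). Among the members themselves the correlation over group means was -0.445 for Acat1 with Angptl4, 0.414 for Pdk4 with Angptl4 and -0.014 for Acat1 with Bdh1. All points come from the same arrays and share their scaling.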

How the data were processed

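Total RNA of 176 rat liver sections was measured on 1-colour arrays, and the deposited intensity values, 1 per probe set, were made with MAS5 per the submitters' processing notes, version not given in the sources used here. Values were deposited without a common scale, so each array was multiplied to a median of 99.35, 25 was added and log2 taken. A probe set was kept if 3 or more arrays placed it over their 40th percentile. Of 15922 probe sets 12783 had 1 gene in the platform annotation, 312 several and 2827 none. The 148 untagged sections, 1 per rat, were fitted with limma 3.58.1 (R 4.3.3, statmod 1.5.0) as 30 groups with 118 residual degrees of freedom, and p-values were Benjamini-Hochberg adjusted over all probe sets. TU and PERI sections were paired with the untagged section of the same rat by the rat number in the titles (14 and 4 residual degrees of freedom). The within-rat correlation over all sections was -0.0272, and rats were kept as pairs because the sections are from the same animal. Rats of 1 group are separate animals. The number of arrays and the spread between rats limit the precision. The suffix B was present on 46 untagged arrays and is treated only as a label. The tests were first run on simulated data with known changes and noise drawn separately for each probe set. These data differ from that setting, so the run is no support for the results here. The 4 genes and all lists were chosen with earlier results of these data known. Genes named outside the 4 came from the at most 4 further genes of each list with the smallest adjusted p in the mean CA effect, and from the 5 most like each of the 4 by correlation over group means. Alternatives were another offset, filter or scaling, array weights, the suffix B, the second Bdh1 probe set, other sections or groups in the fit and each rat left out. Chosen after seeing the data were 6 contrasts (CA labelled 18 against CA 18m, controls and DEN rats at 12m against 5j, the change of the CA and of the DEN-CA effect from 5j to 12m, and the drug effect at 5j with and without DEN) and 3 alternatives (arrays with or without the suffix B alone, and the exclusion of rats 4087 and 4089).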

Additional observations from a re-analysis of the deposited data

Results flagged for a closer look

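Of 116 tests for a lone value, 1 for each of the 4 genes in each group of 4 or more rats, 5 found 1 rat apart from the rest by Dixon's test, and chance alone gives about 1 in 20. The 5 fell in 3 groups. Rat 4049 of the DEN group at -8 was low in Acat1, at 1775 signal against 2703 to 3114 in the other rats, and in Bdh1, at 1165 against 1499 to 1639. Rat 4090 of the DEN-CA group at 1m was low in Acat1, at 5193 against 7597 to 8212, and in Bdh1, at 945.6 against 1258 to 1333. Control rat 4040 at 18m was low in Bdh1, at 218.1 against 849.1 to 1212.

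In 9 cases an effect differed between times or between rev and other rats by a test of the difference itself. The share of all probe sets called was 0.726% for the CA effect at 18m minus 5j and 2.07% at 12m minus 5j. It was 0.888% for the DEN-CA effect at 12m minus 5j. For rev minus other rats it was 1.46% at 18m and 2.3% at 12m. Several of the 9 calls were lost under an alternative or without single rats, as given with their values above. For Acat1 the CA effect at 18m minus that at 5j was -0.93, and the effect in rev rats minus that in other rats was -1.0 for CA at 18m and -1.03 for DEN-CA at 12m. For Angptl4 the CA effect changed by -1.40 to 18m and by -1.52 to 12m against 5j, and the DEN-CA effect by -2.45 to 12m. The DEN-CA effect on Angptl4 in rev rats minus that in other rats at 12m was 1.22. For Pdk4 the change from 5j to 12m was -2.28 for the CA effect and -2.07 for the DEN-CA effect.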

How the results depend on the processing

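Of 1771 values recomputed for the 4 genes under alternatives other than leaving out single rats, 1670 kept their direction and call, 57 lost a call and 42 gained one, and with rats left out singly 2735 of 2812 kept both. A sign that changed without a call under either setting was counted as kept, which concerned 64 and 99 values, with a smallest adjusted p of 0.1. Without scaling, Acat1 in CA rats at 18m against 5j turned to 0.15, Acat1 in DEN-CA rev rats against DEN-CA rats was -0.65 and Angptl4 in CA rev rats against CA rats at 18m 1.03, neither called, while Bdh1 (1.01) and Pdk4 (1.13) gained a call in DEN-CA rev rats against DEN-CA rats at 12m. Both gained it also with array weights (Bdh1 0.48, Pdk4 0.70) and with only the groups of the contrast (Bdh1 0.41, Pdk4 0.56), as did Pdk4 in CA rev rats against CA rats at 18m (-0.54). The mean DEN-CA effect on Bdh1 lost its call with the rat as a random block and with no filter (-0.20 each) and without scaling (-0.059). It ranged from -0.23 to -0.18 with rats left out singly. With only arrays with the suffix B, which are absent at 12m, it was -0.12, and with only arrays without the suffix -0.37. Neither was called, and both fits hold groups of 1 array. The second Bdh1 probe set turned the value at 1m in CA rats to -0.54 and gave calls in the mean CA effect (-0.32) and in TU of DEN-CA rats (-0.58). With only arrays with the suffix B the mean effect on Angptl4 was -0.56 in CA rats and -0.38 in DEN-CA rats, neither called. These means lack 12m, and in CA rats also 18m, so they cover fewer times than the main means. Without rats 4087 and 4089, chosen after they were seen to be high in Pdk4 and Angptl4, the mean DEN-CA effect on Pdk4 gained a call (-0.38).

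In TU sections, the paired fit was set against one with no replicate block. That fit left the differences of Angptl4 in CA rats (-0.76) and of Pdk4 in DEN-CA rats (-0.48) uncalled, and it changed no other call of the 4 genes. The Angptl4 difference in CA rats was also uncalled with no filter (-0.76), no scaling (-0.44), quantile normalization (-0.74), without the rats labelled 18 (-0.59) and without rev rats (-0.64), and ranged from -1.0 to -0.64 with rats left out singly. Pdk4 in DEN-CA rats was uncalled with no filter (-0.48), no scaling (-0.54), quantile normalization (-0.44) and without rev rats (-0.49), and ranged from -0.54 to -0.41, while in CA rats it ranged from -0.50 to -0.30. The number of probe sets called by limma in TU of CA rats was 432, but 1 with no filter, 109 with quantile normalization, 0 without the rats labelled 18, 1 without rev rats and 1 to 2504 with rats left out singly. In TU of DEN-CA rats it was 3418, but 1450 without scaling. For the mean CA effect it was 4976, but 2105 with only arrays with the suffix B, and for the mean DEN-CA effect 4346, but 2393 without scaling and 2383 and 2095 with only arrays with and without that suffix. The cause of these changes was not tested beyond the smaller number of arrays that some alternatives use. Calls of single times and of changes over time that an alternative ended are given beside their values above.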
